A study of Drosophila melanogaster with 4 samples.

Results

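Broad autosomal H3K79me1 domains are wide stretches of enrichment on chromosome arms 2L, 3L and 3R in the combined region list of the series. They were selected on measured values, the width and the score of that list. A region counted as a broad domain when it lay on 2L, 3L or 3R, had a score above 0 and was at least 15 kb wide. Regions starting beyond position 20000000 on 2L or 21500000 on 3L, toward the centromere, were left out, which removed 9 regions of at least 15 kb. One of them, 3L:22295393-22399419, was 104027 bp wide, wider than any domain kept. No position limit was set on 3R, and arm 2R was not part of the rule. The rule gave 365 domains of 7596 enriched regions in the whole list, or of 4469 on these arms within the limits. There were 102 on 2L, 116 on 3L and 147 on 3R.

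The chromatin came from whole L3 (last-instar) larvae of Oregon-R, a wild type strain of Drosophila melanogaster, with no transgene, mutation or treatment in any library. The series held 2 ChIP libraries made with a rabbit antiserum against histone H3 carrying a single methyl group on lysine 79, and 2 input libraries. Regions were deposited for each ChIP library and for the series as a whole, with coordinates of FlyBase release 5. Whole larvae hold many tissues, so a domain enriched in some cells and one enriched weakly in all of them cannot be told apart. The web page cited for the antibody names the dimethylated form, while its name and target are the monomethylated form. The labels do not say that the 2 libraries came from separate cultures, so the SD between replicates may be technical. Gene positions of release 5 were not used here, so no gene is named and no sequence is shown.

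Lysine 79 sits on the globular face of histone H3 and is methylated by Dot1, an enzyme without a SET domain that is called grappa in flies. The enzyme adds the methyl groups step by step, so mono-, di- and trimethylation mark the same residue. In animals the mark lies over the bodies of transcribed genes, and a wide domain can hold a long gene or several neighbouring ones.

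The domains were a small share of the regions and a large share of the marked sequence. They made up 8.17% of the enriched regions on these arms and held 34.1% of their enriched length, 8.75 of 25.6 Mb. Because the domains were chosen by width, a larger share of length than of regions is built in. Their width had a median of 20.9 kb, quartiles of 17.3 and 27.5 kb and a highest value of 71.9 kb. Domains from 15 kb to under 20 kb numbered 158, those from 20 kb to under 30 kb numbered 139, and 68 were 30 kb or wider. The arms were alike in the median, at 20.6 kb on 2L, 20.4 kb on 3L and 21.6 kb on 3R. The width rule cut through a continuous range. The 3 narrowest domains were 15012 bp (3L:9759581-9774592), 15040 bp (3R:19612150-19627189) and 15053 bp (2L:11120911-11135963), with scores of 0.63, 1.12 and 1.11. The 3 widest regions just under the rule were 14986 bp (3L:8511950-8526935), 14975 bp (3L:16962679-16977653) and 14945 bp (3R:14108624-14123568), with scores of 1.01, 0.81 and 1.09.

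The score is the authors' own value for a region, with no stated scale, and serves here to describe and rank regions within a list. Scores of the domains ran from 0.45 to 1.82 with a median of 1.03, against a median of 0.46 for the 4104 narrower regions of the same arms. The median domain scored above 85.9% of the combined list, and the lowest above 41.0%. Width and score rose together among the narrower regions, with a Spearman rho of 0.78 across regions. Among the 365 domains the rho was 0.19. The narrower regions ran from 1.00 to 15.0 kb and the domains from 15.0 to 71.9 kb. The domains thus spanned a smaller fold range of width, so part of this difference may be built in. These values describe regions of 1 list, which share their libraries, and carry no test.

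**Figure D1:**
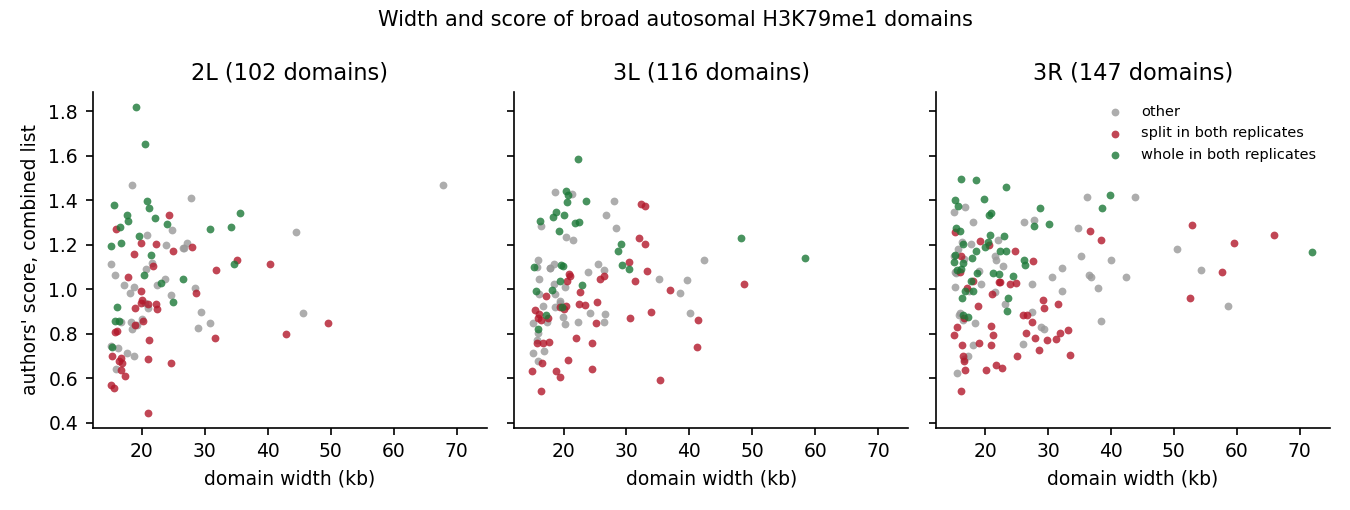
Width in kb against the authors' score in the combined list for each broad domain, 1 panel per arm and 1 point per domain. Green points are whole and red points split in both replicate lists, and grey points are all others; scores run from 0.45 to 1.82 at widths of 15.0 to 71.9 kb.

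The highest scores were not those of the widest domains. First in score was 2L:183065-202128, 19.1 kb wide with a score of 1.82, rank 9 of the whole list and the first domain from the free end of 2L. It was followed by 2L:8053898-8074302 (20.4 kb, score 1.65), 3L:1771768-1794019 (22.3 kb, score 1.59), 3R:612871-629094 (16.2 kb, score 1.497) and 3R:10089991-10108504 (18.5 kb, score 1.49). All 5 were single regions in both replicate lists, which covered 98.3% or more of each. There the first of them scored 1.89 and 1.80, and the last 1.54 and 1.48. The fourth, 3R:612871-629094, lay inside a wider region of replicate 1 that spanned 19.8 kb and scored 1.33, against 1.54 in replicate 2.

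Every domain was found in both replicates. Regions of replicate 1 covered 96.4% of the total domain length and regions of replicate 2 covered 95.3%, a mean of 95.9% ± 0.782 (SD, n = 2). By base, 93.1% of domain length was shared by the replicates, 3.34% was found only by replicate 1 and 2.24% only by replicate 2. The remaining 1.34%, or 117 kb, was in neither. The median domain was covered over 98.1% and 97.2%. Coverage of at least 90% in both replicates held for 290 domains, while 13 fell under 80% in replicate 1, 8 in replicate 2 and 2 in both. The narrower regions of the same arms were covered over 78.3% and 80.1% of their length. Since the combined list was made from these libraries, this overlap is a description and not an independent check.

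Although nearly all of their sequence was shared, many domains were split: nearly as many as were kept whole in replicate 1, and more in replicate 2. A domain was called whole where exactly 1 replicate region overlapped it and covered at least 90% of it, trimmed where that region covered less, and split where 2 or more regions overlapped it. Replicate 1 kept 184 of 365 domains whole (50.4%) and split 175 (47.9%). Replicate 2 kept 138 whole (37.8%) and split 221 (60.5%). In each list 6 domains were trimmed and 0 were absent. Among the 4104 narrower regions 37.8% were whole in replicate 1 and 39.4% in replicate 2, so the whole share of the domains in replicate 2 was near that of narrower regions. Of those regions 8.67% and 10.9% were split, 22.0% and 23.5% trimmed, and 31.5% and 26.1% absent. A whole domain could lie in a wider region: 12 of the 184 in replicate 1 shared their region with another domain, against 1 of the 138 in replicate 2. In 24 cases in replicate 1 and 1 in replicate 2, the region was at least 1500 bp wider than the domain. Over the replicates 44.1% ± 8.91 (SD, n = 2) were whole and 54.2% ± 8.91 were split. An overlap of 1 bp was enough for a piece, so a sliver at the edge could make a domain split. Pieces that covered under 5% of their domain numbered 18 in replicate 1 and 15 in replicate 2. With such pieces left out, the mean whole share was 45.5%.

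The 2 lists put most domains in the same class and differed on the rest. Domains whole in both numbered 98 (26.8%) and domains split in both 136 (37.3%). Another 82 were whole in replicate 1 and split in replicate 2, and 38 were the reverse. Replicate 2 had more pieces in 132 domains, replicate 1 in 65, and the number was the same in 168. The number of pieces also differed: 120 domains had 2 pieces and 55 had 3 or more in replicate 1, against 110 and 111 in replicate 2. In all, replicate 1 had 622 pieces and replicate 2 had 770. Both lists covered about the same length of these arms, 31.5% and 31.6%. Inside the domains replicate 2 covered slightly less, 95.3% against 96.4%, so its extra pieces did not go with a larger covered length. The narrower regions were also split more often in replicate 2, 10.9% against 8.67%, so the difference was not confined to the domains. Read totals per library were not analysed here, and the part of depth in this difference was not tested.

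High-scoring domains were kept whole more often than low-scoring ones, and split less often. The domains were ordered by score in the combined list and cut into 4 classes of 91 or 92. The lowest class (scores of 0.45 to 0.86) was whole in 28.3% of cases in replicate 1 and 10.9% in replicate 2. The highest class (1.199 to 1.82) was whole in 68.1% and 67.0%. Split shares ran from 70.7% and 85.9% in the lowest class to 31.9% and 31.9% in the highest. Of the 98 domains whole in both lists, 4 were in the lowest class and 48 in the highest. The gap between the replicates was 17.4 percentage points in the lowest class and 1.10 in the highest, but it did not shrink steadily. The second class was whole in 45.1% and 26.4% of cases and the third in 60.4% and 47.3%. Score and splitting come from the same calls, so this is a description with no test.

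**Figure D2:**
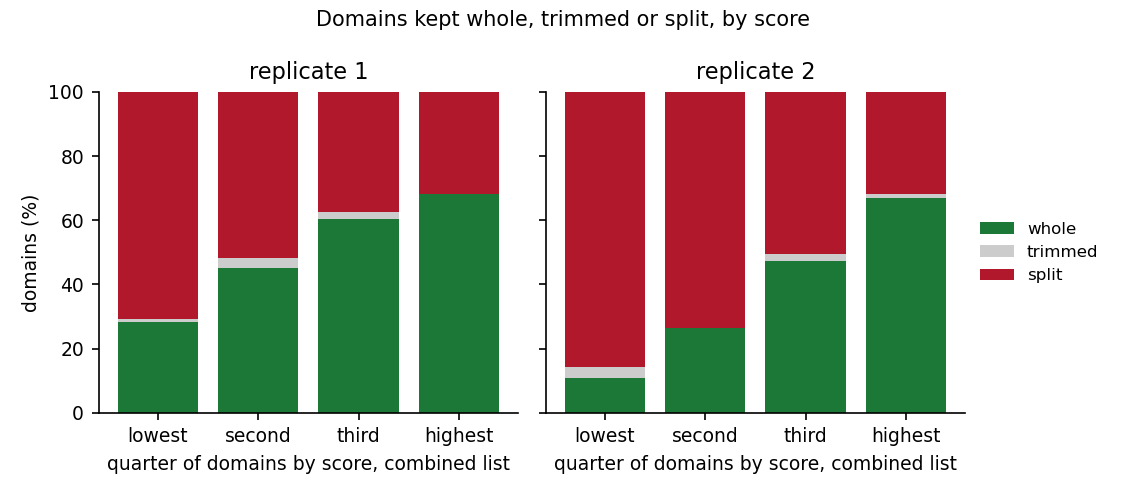
Percent of domains kept whole (green), trimmed (grey) or split (red) in each replicate list, for 4 classes of the domains ordered by score in the combined list (92 domains in the lowest class, 91 in each other). The whole share is 28.3% and 10.9% in the lowest class and 68.1% and 67.0% in the highest.

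Splitting also went with width, more so in replicate 2. Domains of 15 to under 20 kb were split in 43.0% of cases in replicate 1 and 53.8% in replicate 2. Domains of 30 kb or more were split in 54.4% and 76.5%. A wider domain has more places to be split, so part of this is built in. Across domains the Spearman rho of width and number of pieces was 0.067 in replicate 1 and 0.26 in replicate 2. By arm, 46.1%, 48.3% and 49.0% were split on 2L, 3L and 3R in replicate 1. In replicate 2 the shares were 64.7%, 63.8% and 55.1%, lowest on 3R.

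Of the 10 widest domains some were whole in both lists, some in replicate 1 only and some in neither. The widest of all, 3R:10218007-10289931 (71.9 kb, score 1.17), was a single region of 71.7 kb in replicate 1 and of 71.8 kb in replicate 2, with scores of 1.17 and 1.18. The widest on 3L, 3L:8824976-8883371 (58.4 kb, score 1.14), was likewise single in both, at 58.5 kb and 58.0 kb. The widest on 2L, 2L:7893269-7961148 (67.9 kb, score 1.47), was single in replicate 1, while replicate 2 had a region over 91.2% of it and then 2 short ones of 3.94 kb and 1.37 kb. In that domain the score fell along the 3 pieces of replicate 2, from 1.46 to 1.03 and 0.60.

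A pair of the wide domains broke partway along at about the same point in both replicates, with lower scores before that point. In 3R:20422146-20488124 (66.0 kb), replicate 1 had a piece scoring 1.01 up to 29.7 kb from the start and a piece scoring 1.44 from 30.1 kb onward. Replicate 2 had pieces of 1.00 and 0.94 up to 30.0 kb and a piece of 1.47 from there onward. The lower-scoring part thus came first in both, and both lists put the border near the same position. In 3R:19810748-19868353 (57.6 kb) both lists broke at 12.9 kb, after a piece scoring 0.93 in replicate 1 and 0.87 in replicate 2. Replicate 1 kept the rest as a single region with a score of 1.18. Replicate 2 cut it into 4, with scores of 1.00, 1.12, 1.03 and 1.27 in order. Its largest rise in score thus came at about 45.0 kb and not at the shared break.

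Others were cut in part at different places. In 3R:11141222-11194077 (52.9 kb) both lists broke 28.0 kb from the start, and they also broke at 13.1 kb in replicate 1 and at 9.51 kb in replicate 2. The 3 pieces of each list scored 1.25 to 1.33, with no step in score at the shared break. In 3R:5755216-5814752 (59.5 kb) replicate 1 broke 25.4 kb from the start and replicate 2 at 4.23 and 11.0 kb. Its neighbour 3R:5696396-5755052 (58.7 kb), which ends 163 bp before it, was single in replicate 1 and had 5 pieces in replicate 2. In 3R:7406930-7459443 (52.5 kb) replicate 1 had 5 pieces, with scores of 1.32, 0.73, 0.61, 0.67 and 1.11 in order along the arm. The last belonged to a region that ran 15349 bp past the domain's end, so its score also covers sequence outside the domain. Replicate 2 had 2 pieces of 1.04 and 1.00 in this domain, so the low stretch in the middle of replicate 1 was not set apart. The break of replicate 2, from 22.8 to 23.8 kb, was also a break of replicate 1. The remaining domain among the 10 widest, 3R:14804457-14858810 (54.4 kb, score 1.09), was single in replicate 1 and in 3 pieces in replicate 2.

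**Figure D3:**
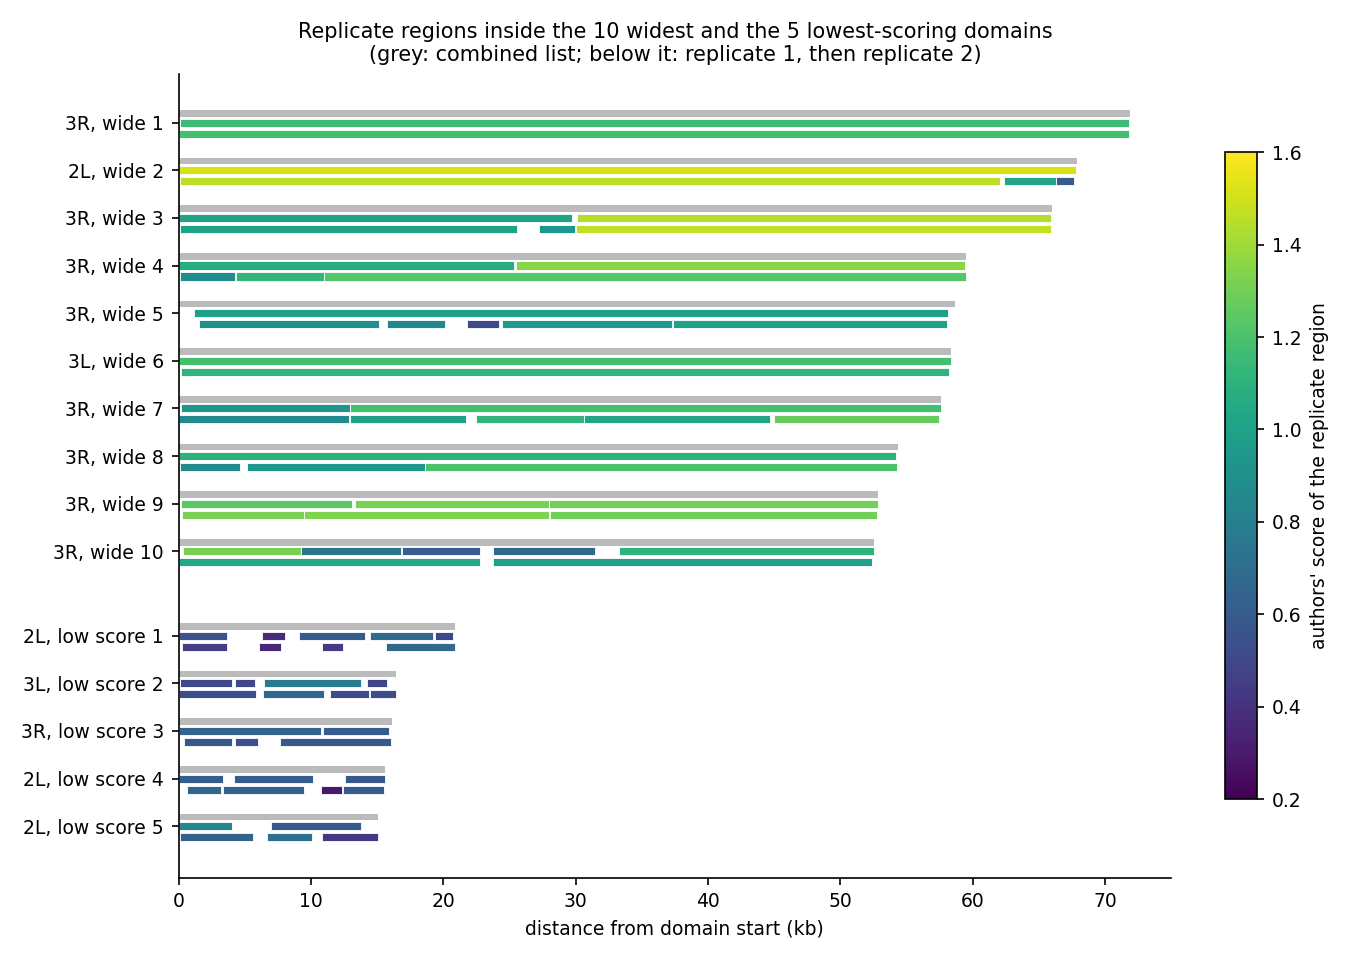
Replicate regions inside the 10 widest domains (upper rows) and the 5 lowest-scoring ones (lower rows), by distance from the domain start in kb; the grey bar is the combined list, with replicate 1 and then replicate 2 below it, coloured by the authors' score. Wide domains 1 and 6 are a single bar in both replicates, and the 5 low-scoring domains are broken in both.

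Wide domains that stayed whole in both lists were also found below the 10 widest. After the widest on 3R and on 3L, the next were 3L:442204-490387 (48.2 kb, score 1.23), 3R:27243054-27282915 (39.9 kb, score 1.43) and 3R:26149648-26188262 (38.6 kb, score 1.36). Both replicates covered 97.9% or more of each. Domains whole in both had a median width of 20.2 kb and a median score of 1.19. Domains split in both had a median width of 21.7 kb and a median score of 0.90.

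The most fragmented domains held low-scoring pieces. In 3L:713331-748654 (35.3 kb, score 0.59) replicate 1 had 7 pieces over 68.0% of the domain and replicate 2 had 4 over 81.5%. The last piece was the widest in both, from 22.4 kb and 19.1 kb to the far end, with scores of 0.76 and 0.74. In 2L:18337660-18387272 (49.6 kb, score 0.85) the opposite held: replicate 2 had 8 pieces with scores of 0.48 to 1.07, and replicate 1 covered 99.4% of the domain with a single region and touched its edge with another. Other domains with many pieces were 3R:21389582-21423153 (5 and 4 pieces), 3L:16861075-16902482 (2 and 6 pieces) and 3R:4988920-5018702 (2 and 6 pieces).

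Within split domains the pieces differed in score. The median difference between the highest and the lowest piece of a domain was 0.28 in replicate 1 (175 domains) and 0.38 in replicate 2 (221 domains). The widest piece held 64.0% and 57.5% of the domain in the median. It also had the highest score in 121 and 149 of these domains. Only 2 pieces were present in 120 and 110 of them, where the widest would often score highest in any case. More pieces also leave more room for a difference in score, and replicate 2 had more. Part of these values is therefore built in. Scores of the widest piece ranked the domains alike in both replicates, with a Spearman rho of 0.89 over 365 domains, given as a description.

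The gaps that broke domains were short. Between pieces there were 257 gaps in replicate 1 and 405 in replicate 2, with medians of 260 and 327 bp. Gaps under 100 bp numbered 64 and 99, and in 1 and 4 cases the pieces abutted with 0 bp between them. At the other end, 37 and 76 gaps were 1 kb or longer. All gaps together took up 135 kb in replicate 1 and 222 kb in replicate 2. With regions of a replicate joined across gaps of up to 1 kb, 86.3% of the domains were whole in replicate 1 and 78.9% in replicate 2, so the whole share depends on how short gaps are treated.

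Most gaps of either list did not overlap a gap of the other. Of the gaps in replicate 1, 36.2% (93) overlapped a gap of replicate 2, and 22.7% (92) of the gaps in replicate 2 overlapped a gap of replicate 1. Shared gaps had medians of 461 and 608 bp, against 210 and 289 bp for the others. A longer gap overlaps another more easily, so part of this is built in. A single region of the other list spanned 60.3% of the gaps of replicate 1 and 75.8% of those of replicate 2. These shares include breaks placed slightly apart in the 2 lists. In 2L:17461107-17486018 a gap of 56 bp in replicate 1 and one of 59 bp in replicate 2 lay close together without overlap. Outer borders of the replicates differed by medians of 128 bp at the start and 132 bp at the end. How many breaks were common to both lists is thus not settled by overlap alone. The longest gap, 5967 bp in 3L:10974989-10995668, was in replicate 1 alone and lay 8.52 kb from the domain start. Replicate 1 covered 66.2% of that domain, its lowest share among the domains, and replicate 2 covered 95.7%. The next lowest in replicate 1 was 3R:25755957-25771902, at 67.7% against 89.4%. In both lists the last pieces of that domain ended short of its end, at 11.1 kb and 14.3 kb of 15.9 kb, and scored 0.48 and 0.56 after first pieces of 1.32 and 1.41.

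The domains least covered in replicate 2 were neighbours on 2L. They were 2L:13606355-13627237 (56.8% covered, score 0.45), 2L:13564581-13581386 (68.0%, score 0.67) and 2L:13581523-13598891 (71.1%, score 0.61). Replicate 1 covered them over 79.03%, 95.2% and 86.9%. The first of these had the lowest score of all domains, rank 4485 of the list. It was broken into 5 pieces scoring 0.37 to 0.68 in replicate 1 and 4 pieces scoring 0.36 to 0.67 in replicate 2, with the first gap at 3.66 kb and 3.64 kb from the start. The other domains of lowest score were 3L:12378747-12395182 (0.54), 3R:5419071-5435177 (0.54), 2L:11953448-11969055 (0.55) and 2L:319871-334956 (0.57), all split in both lists. Their covered shares were 71.6% to 97.2% in replicate 1 and 85.4% to 93.1% in replicate 2.

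Outer borders were placed close together. The start of a domain lay a median of 90 bp from the outermost start in replicate 1 and 95 bp from that in replicate 2, and the end 102 and 90 bp. In the median the replicate border was inside the domain, by 57 to 94 bp. The outer starts of the 2 replicates were within 200 bp of each other in 64.1% of domains and the ends in 60.0%. Replicate 1 ran more than 1 kb past a domain's start in 17 cases and past its end in 24, against 2 and 1 in replicate 2. It also had 9 regions that overlapped 2 or more domains, and replicate 2 had 1.

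The broad domains were unevenly spaced. There were 5.10 per Mb on 2L, 5.40 on 3L and 5.27 on 3R. The distance from the end of a domain to the start of the next had a median of 66.3 kb over 362 distances, with quartiles of 16.6 and 219 kb and extremes of 0.006 and 2541 kb. The mean was 165 kb. Medians were 56.6 kb on 2L, 67.5 kb on 3L and 67.3 kb on 3R. Per full 1 Mb window the count ran from 0 to 13 with a median of 5.0. The highest counts were in 2L from 13000001 to 14000000 and in the first window of 3L, with 13 each, and 3 of 68 windows held none.

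**Figure D4:**
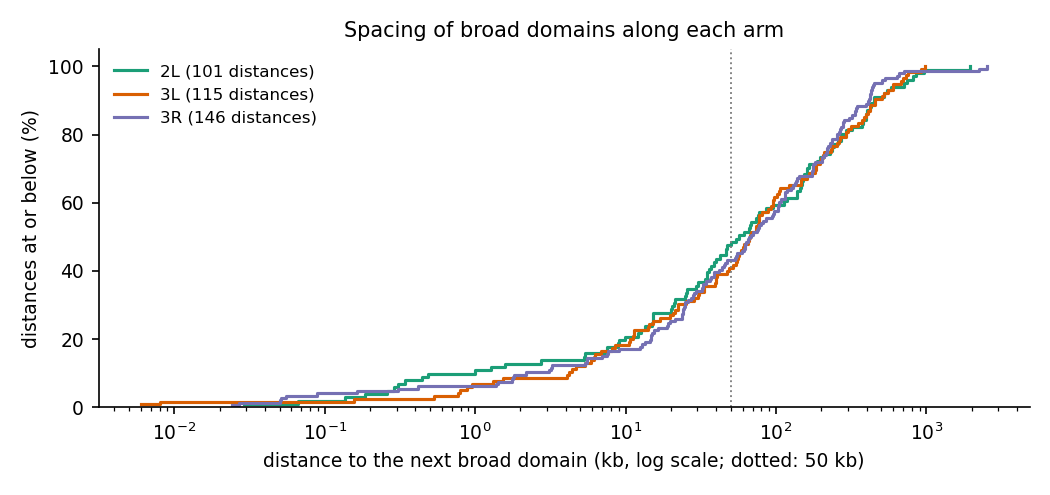
Cumulative percent of distances from a broad domain to the next on the same arm, in kb on a log scale, with 1 line per arm and a dotted line at 50 kb. At 50 kb the lines stand at 48.5% on 2L, 40.9% on 3L and 43.2% on 3R.

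Many domains had a close neighbour. The next domain was within 50 kb in 43.9% of cases (159 of 362), within 10 kb in 67 and under 1 kb away in 27. The closest pair, 3L:14628402-14644334 and 3L:14644341-14664600, was 6 bp apart. Replicate 1 had a single region of 34.9 kb across both, and replicate 2 had 4 pieces in the former and 2 in the latter. The next, 3L:3516334-3546767 and 3L:3546776-3586922, 8 bp apart, lay in a single 70.1 kb region of replicate 1, while replicate 2 began a new piece 1.09 kb into the latter. The third, 3R:25887109-25909499 and 3R:25909524-25925308, was 24 bp apart, and both replicates also broke near that place. Pairs this close are separate by the letter of the list.

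Domains linked by distances of at most 50 kb formed 88 clusters with 247 domains, and 118 domains had none that near. Clusters of 4 or more domains numbered 16. The largest on each arm were 2L from 2889695 to 3169004 (7 domains in 279 kb), 3L from 2368143 to 2586467 (6 in 218 kb) and 3R from 19810748 to 20162868 (7 in 352 kb). Broad domains took up 67.1%, 70.6% and 62.8% of these spans and enriched regions of any width 81.9%, 90.6% and 84.4%. Replicate 1 kept 6 of 7 domains whole in the 2L cluster, 4 of 6 in the 3L cluster and 3 of 7 in the 3R cluster. Replicate 2 kept 1, 2 and 1. Scores ran from 0.85 to 1.47 in the 2L cluster. Domains in clusters of 4 or more had a median width of 21.52 kb and score of 1.07, against 20.4 kb and 1.02 for those with no other within 50 kb.

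Farthest from any other was 2L:17461107-17486018 (24.9 kb, score 1.17), with 544 kb to one side and 852 kb to the other. Both replicates broke it in 2 at nearly the same place, 16.8 kb and 16.9 kb from its start. The next were 3L:14013565-14029959, 510 kb from its neighbour, and 3L:11526884-11546645, 454 kb away. The former was in 4 pieces in replicate 1, with scores of 1.64, 0.44, 1.09 and 0.48, and single in replicate 2 with 1.33. The longest stretches without a broad domain were 2541 kb on 3R (12026413 to 14567891), 2249 kb on 3R (1473897 to 3723141) and 1936 kb on 2L (14668631 to 16605062). They held 132, 89 and 56 narrower regions, which covered 27.04%, 17.1% and 12.8% of them in the combined list. These 3 were chosen after their values were seen.

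The sequence around the domains was also rich in H3K79me1. In the 25 kb on each side of a domain, other enriched regions of the combined list covered a median of 59.2%, against 36.9% of the arms as a whole. In replicate 1 the values were 49.9% against 31.5%, and in replicate 2 50.3% against 31.6%. Around the narrower regions of these arms the medians were 50.9%, 39.8% and 41.3% in the 3 lists. By distance, the first 1 kb outside a border was covered over 30.6% in the combined list, which is low by construction since a region ends there. Coverage then reached 63.4% at 5 to 6 kb and was 46.3% at 49 to 50 kb, above the arm share at the end of the range examined. Around single domains the flanks ran from 0 to 97.0%. Across domains the Spearman rho of flank coverage and score was -0.0041.

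**Figure D5:**
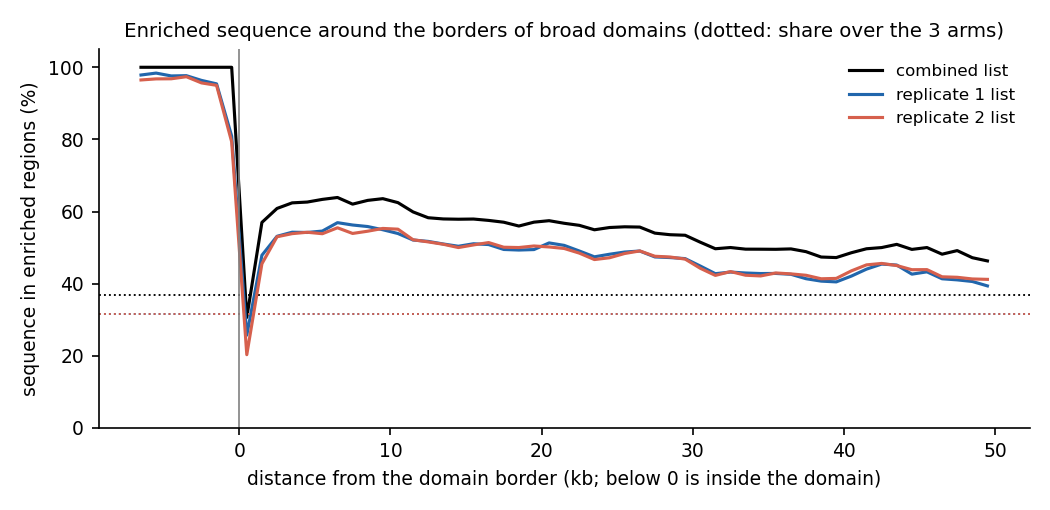
Percent of sequence in enriched regions by distance from the domain border in kb, in bins of 1 kb with both sides of all 365 domains pooled, for the 3 lists. Dotted lines are the shares of the 3 arms (36.9% in the combined list, 31.5% and 31.6% in the replicates); beyond the first bin outside the border each list stays above its line out to 50 kb.

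Broad regions on X were near these in median width, whole share and covered share, and had a higher median score. By the same width rule, with no position limit on X, there were 96. Their median width was 21.8 kb and the widest was 108 kb, against 71.9 kb on these arms. Their median score was 1.16, against 1.03 for the domains. Replicate 1 kept 46.9% of them whole and replicate 2 38.5%, and covered shares of their length were 96.9% and 94.6%. The labels give no sex for the larvae, and differences between X and these arms were not tested.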

How the data were processed

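L3 larval chromatin of Oregon-R was studied with 2 ChIP and 2 input libraries; the input libraries had no list among the files used here. Bowtie 0.12.7 was named, per the submitters' processing notes. Per the file headers, coordinates follow FlyBase release 5. Each line deposited by the authors holds the borders and the score of a region, with 1 list per ChIP replicate and 1 combined list. The caller, its threshold, the use of input, the scale of the score and the way of combining are not given in the sources used here. Read depth was not given, so no counting interval was made.

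Enriched regions (score above 0) were intersected in Python 3.11.15 with numpy 2.4.6, pandas 2.3.3 and scipy 1.17.1; figures used matplotlib 3.10.9. An overlap of 1 bp made a replicate region a piece of a domain. Flanks were 25 kb a side and clusters linked domains at most 50 kb apart. The domains, rules and alternatives were chosen with earlier results of these data known. The domains named were the 10 widest, the widest per arm, the 5 highest and 5 lowest scores, the 3 most split and 3 least covered per replicate, the 5 widest whole in both, the 3 closest pairs, the 3 most isolated, the largest cluster per arm and 3 regions on each side of the width rule. No test was made, since the rule and both replicate lists rest on the same libraries and regions are not replicates. Counting of pieces and gaps was tested on 400 simulated domains, of which 400 were recovered. A gene table of release 6 was at hand and was not used for positions of release 5.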

Additional observations from a re-analysis of the deposited data

How the results depend on the processing

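Of 36 alternative values, 18 stayed within a set range and 18 did not. The limit was the replicate SD, a factor of 1.5 for counts, or for medians a 95% order-statistic interval that treats domains as independent. With 2 replicates, leaving 1 out always shifts a mean by less than their SD. The whole share, covered share and border distance could therefore not leave their range under that alternative. Such values are counted among the 18 that stayed. The number of domains was 714 with a minimum width of 10 kb, 207 with 20 kb and 556 with regions within 1 kb merged, against 273 and 225 in the lists of replicate 1 and replicate 2 alone. Their median width was then 15.1, 26.4 and 25.2 kb, and 20.7 and 20.1 kb in the replicate lists, and their median spacing 25.8, 149 and 39.8 kb under the first 3 settings. These moves follow from the settings themselves, which admit, drop or join regions. The whole share was 82.6% with replicate regions within 1 kb merged, and 37.8% to 50.4% with 1 replicate left out. Replicate regions at or above the median score covered 89.0% of domain length, and gaps of at least 500 bp numbered 117 in the mean of the replicates, against 331 of any width. The median score was 1.08 in each replicate list by the widest piece (1.075 and 1.085), and flank coverage 49.9% to 50.3% with the regions of a single replicate; the cause was not tested. Covered share was 95.3% to 96.4%, gaps 257 to 405 and border distance 93.0 to 94.0 bp with 1 replicate left out. No paired analysis was possible because no ChIP list had a matching input list among the files used here. The depth behind the lists was unknown, so a gap in a single list cannot be judged by it.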

Other observations

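Joining enriched regions of the combined list across gaps of up to 1 kb turned several clusters into far wider stretches. The widest was 3L from 434089 to 575584, 141 kb made of 5 regions. Next came 2L from 8116699 to 8239253 (123 kb, 11 regions), 3R from 4905402 to 5023990 (119 kb, 10 regions) and 3R from 5696396 to 5814752 (118 kb, 2 regions). The last joined 3R:5696396-5755052 and 3R:5755216-5814752, which are 163 bp apart in the list.

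Regions called depleted lay beside few broad domains. Within the position limits the combined list had 4 and replicate 2 had 2. The closest, 3R from 26632384 to 26634069 with a score of -0.036, began 88 bp after the end of 3R:26615752-26632295 and was in the combined list alone. The others lay 23.2 to 198 kb from the nearest domain.

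Gaps inside domains were spread along them. In replicate 1, 33.1% of the gaps had their middle in the outer 40% of the domain's length, and in replicate 2 33.1%. A gap was counted only between 2 pieces and never at the edge of a domain, so part of this shortfall is built in.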
